A study of Mus musculus with 16 samples.

Results

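The dopamine receptor genes Drd1, Drd2, Drd3, Drd4 and Drd5 were followed in mouse dorsal root ganglia (DRG) after nerve injury and treatment with the tricyclic antidepressant desipramine (DMI). The genes were chosen by name, with earlier results of these data known. They are the 5 of the 52636 genes in the count files whose Ensembl identifiers carry these symbols in the mm10 (GRCm38) annotation GENCODE M21. Polyadenylated RNA of L3-6 DRG from 16 male C57BL/6J mice, 3 to 4 months old, was sequenced with 1 mouse per library and 4 mice in each of 4 groups. Sham-Saline mice had sham surgery and saline injections, SNI-Saline mice had spared nerve injury and saline, Sham-DMI mice had sham surgery and DMI, and SNI-DMI mice had spared nerve injury and DMI. DMI was given intraperitoneally at 15 mg/kg, 2 injections per day for 3 weeks, starting 4 weeks after surgery by the sample descriptions, while the methods text of the study gives this interval in months. In spared nerve injury, branches of the sciatic nerve are cut and 1 branch is left intact, so the L3-6 ganglia hold both cut and uncut sensory neurons.

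Dopamine receptors are G protein-coupled receptors that fall into a pair of families. The D1-like receptors, encoded by Drd1 and Drd5, couple to the stimulatory G proteins Gs and Golf and raise cyclic AMP, whereas the D2-like receptors, encoded by Drd2, Drd3 and Drd4, couple to Gi and Go, lower cyclic AMP, open G protein-gated potassium (GIRK) channels and inhibit voltage-gated calcium channels. In the pain pathway, dopamine reaches the dorsal horn from descending hypothalamic fibres, and D2-like receptors on sensory neurons and spinal neurons are mostly described as inhibitory. DMI blocks the reuptake of noradrenaline and is used against neuropathic pain.

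The libraries held 41194238 to 73920332 reads on genes, so that 3 counts, taken here as the floor below which a level was not read, corresponded to 0.0406 to 0.0728 counts per 1000000 (CPM). The submitters gave spinal cord as the tissue but dorsal root ganglia under cell type. All 7 markers of DRG sensory neuron identity were expressed, with a summed level of 3990 to 4760 CPM, and the 13 spinal cord and central nervous system markers summed to 19.1 to 52.6 CPM, 7 of them (Chat, Lhx5, Mnx1, Olig2, Opalin, Slc32a1 and Slc6a5) too low to test. Sham-DMI libraries 2 and 4 stood apart from the rest of their group in some injured neuron markers. Sprr1a, a gene switched on in cut sensory neurons and named from its list after its values were seen, was at 12.2 and 9.19 CPM in these libraries, at 1.81 and 1.67 CPM in Sham-DMI 1 and 3, at 0.619 to 2.06 CPM in Sham-Saline and at 30.1 to 73.9 CPM in the injured groups. Atf3, Npy and Ecel1 of this list were also highest within the group in Sham-DMI 2 and 4, but not all markers were. Gal was at 29.6 and 28.5 CPM in Sham-DMI 2 and 4 and at 37.2 and 25.8 CPM in Sham-DMI 1 and 3. Ecel1 was at 6.29 and 4.65 CPM in Sham-DMI 2 and 4 and at 3.79 and 2.85 CPM in Sham-DMI 1 and 3. All were above its 1.43 to 2.46 CPM in Sham-Saline, without overlap. Results below whose call or sign changed without Sham-DMI 2 and 4 are given both ways. In the library names, the numbers were 17 to 20 in Sham-DMI, 21 to 24 in SNI-DMI, 33 to 36 in SNI-Saline and 37 to 40 in Sham-Saline. What these numbers stand for is not given in the sources used here. Anything that went with them cannot be told apart from DMI or from surgery.

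Drd2 (ENSMUSG00000032259) lies on the plus strand of chromosome 9 at chr9:49340627-49408177 and has a single annotated transcript of 2547 bases in 8 exons. Its exon 6, at chr9:49403194-49403280, is the cassette that is kept in the long form of the D2 receptor and skipped in the short form, a pair known to differ in the third intracellular loop that meets the G protein. The exon is shown because counts per gene add up both forms. It holds 87 bases, a multiple of 3 that gives 29 codons, and the deposited counts do not say how often it was included.

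Drd2 exon 6: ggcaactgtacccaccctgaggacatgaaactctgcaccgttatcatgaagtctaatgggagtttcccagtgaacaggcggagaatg

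Sequence before the RefSeq start of the most abundant and the next receptor is shown next, since both genes belong to the same family yet differed in level in every library. Each run gives the first 200 bases of the window that RefSeq places around a gene's start (GRCm38.p6), with every non-overlapping GGGCGG or CCGCCC (the GC box read on either strand) in capitals. The Drd2 run lies at chr9:49340153-49340352 and the Drd3 run at chr16:43761971-43762170, both on the plus strand. The Drd2 run lies before the GENCODE transcript. The Drd3 run lies before the shorter of its 2 GENCODE transcripts, which starts at base 43762221, but inside the first intron of the longer one, which starts at base 43754026, so sequence before that other start is not shown.

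Drd2 before the RefSeq start: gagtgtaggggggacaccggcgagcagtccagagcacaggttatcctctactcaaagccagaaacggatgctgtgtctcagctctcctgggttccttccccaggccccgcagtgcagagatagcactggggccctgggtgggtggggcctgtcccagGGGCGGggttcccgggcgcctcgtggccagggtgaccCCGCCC

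Drd3 before the RefSeq start: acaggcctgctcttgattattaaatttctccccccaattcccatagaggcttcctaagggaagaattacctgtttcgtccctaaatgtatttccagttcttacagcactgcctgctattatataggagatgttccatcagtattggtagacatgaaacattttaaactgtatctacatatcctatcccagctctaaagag

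The Drd2 run had a GC content of 67.5%, 9 CpG dinucleotides and 2 GC boxes, whereas the Drd3 run had 39.5%, 1 CpG and no GC box. Over all 32851 RefSeq windows of this length the median was 51.5% GC and 4 CpG, 24.6% held at least 1 GC box and 9.86% held 2 or more. GC content did not follow the level of the receptors: Drd5, which was barely counted, had the richest window of the 5 genes, with 74.5% GC, 32 CpG and 2 GC boxes, although 92 of its 200 bases are exon in GENCODE. These matches describe letters only and were not tested as binding sites.

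Drd1 (ENSMUSG00000021478, chr13:54051183-54055705, minus strand), Drd3 (ENSMUSG00000022705, chr16:43754026-43822932, plus strand) and Drd4 (ENSMUSG00000025496, chr7:141292006-141296464, plus strand) share no 50-base stretch of transcript with another gene, and neither does Drd2. Drd5 (ENSMUSG00000039358, chr5:38319367-38322518, plus strand) is a single-exon gene of 3152 bases, of which 1531 are also exon of the antisense gene Gm26560. The libraries were made with a stranded kit, but the counting mostly behaved as if strand was not used. Of 239 genes lying wholly inside exons of opposite-strand genes, 230 had 0 counts in all libraries, as did 14416 of all 52636 genes. Against this, 4 of the 239 had 100 or more counts, up to 10219, so the strand setting is not settled. If strand was not used, reads from the shared bases would be set aside as ambiguous. The level of Drd5 would then rest on its other 1621 bases and be a lower estimate.

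Drd2 was the dopamine receptor gene with the most reads in every library, with 79 to 291 counts. Drd3 had 4 to 41 counts and Drd1 had 2 to 25, and both were seen in all 16 libraries. Drd4 had 13 counts in all libraries together and was at 0 in 7 libraries, and Drd5 had 20 counts in all and was at 0 in 4. Of the 5 genes, Drd1, Drd2 and Drd3 passed the filter on low counts and were tested. Drd2 took a median of 88.2% of the receptor reads of a library, from 66.0% to 94.9%.

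Divided by exon length, the order of mean levels was Drd2, Drd3, Drd1, Drd5, Drd4 in Sham-Saline, Sham-DMI and SNI-DMI. In SNI-Saline Drd4 stood before Drd5, and with the bases shared with Gm26560 left out of the length of Drd5 the order there was as in the other groups. Drd4 never exceeded the floor of 3 counts and Drd5 did so in 1 library, so the order between them was not read. The lowest Drd2 library lay above the highest Drd3 library within every group. In Sham-Saline the mean level was 1.09 ± 0.312 CPM per kb (SD, n = 4) for Drd2, 0.131 ± 0.0906 for Drd3 and 0.0548 ± 0.0439 for Drd1. Drd3 and Drd1 overlapped in Sham-Saline and SNI-DMI but not in the other groups, Drd1 and Drd5 overlapped in SNI-DMI alone, and Drd5 and Drd4 overlapped in all groups. Against the 21371 genes tested, the mean level of Drd2 over all libraries, 1.16 CPM per kb, was above that of 36.9% of them, Drd3 above 9.31% and Drd1 above 1.96%. A low level in whole ganglia does not separate few cells with the transcript from little transcript per cell: fewer cells of a type and less RNA per cell cannot be told apart in these samples.

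**Figure D1:**
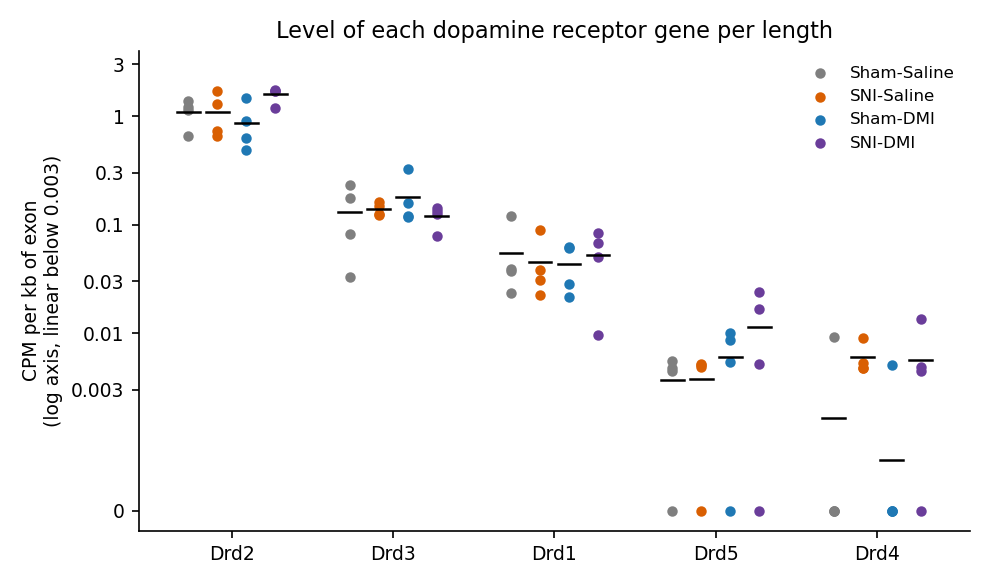
Level of each dopamine receptor gene in CPM per kb of exon on a symmetric log axis that is linear below 0.003, with 1 point per library and a black line at each group mean. The Drd2 points lie above those of the other 4 genes in every group, with a mean of 1.09 CPM per kb in Sham-Saline against 0.131 for Drd3, and Drd4 and Drd5 reach 0 in some libraries.

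Drd2 levels were then compared between the groups, which addresses whether injury, antidepressant treatment or both change the receptor that carries most of the dopamine receptor reads. In Sham-Saline, Drd2 was at 1.65, 2.89, 3.12 and 3.49 CPM. In SNI-Saline it was at 4.33, 3.31, 1.65 and 1.86 CPM, a spread that covered the whole Sham-Saline range. Both groups had a mean of 2.79 CPM, with an SD of 0.795 in Sham-Saline and 1.26 in SNI-Saline.

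In Sham-DMI, Drd2 was at 3.71, 1.61, 2.30 and 1.25 CPM, and the lowest 2 values of all 16 libraries, 1.25 and 1.61 CPM, were those of Sham-DMI 4 and 2, the sham libraries with raised Sprr1a. In SNI-DMI it was at 4.37, 4.46, 3.02 and 4.39 CPM. SNI-DMI was thus the group with the highest mean, 4.06 ± 0.695 CPM (SD, n = 4), against 2.21 ± 1.09 CPM in Sham-DMI, and 3 of its 4 libraries stood above every library of the other groups.

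**Figure D2:**
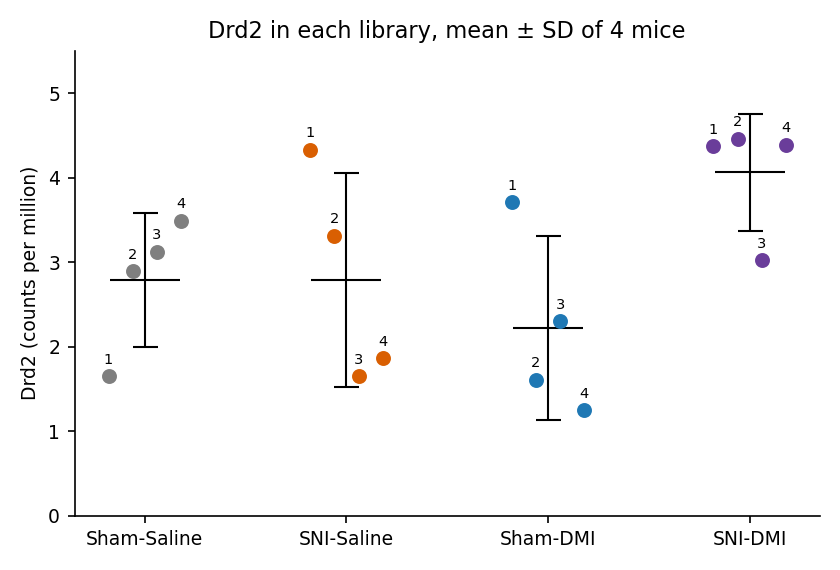
Drd2 in CPM in each of the 16 libraries by group, with the replicate number above each point and the mean ± SD of 4 mice as a black line and bar. Sham-Saline and SNI-Saline share a mean of 2.79 CPM, Sham-DMI has the lowest mean (2.21 CPM) and SNI-DMI the highest (4.06 CPM), with 1 library at 3.02 CPM inside the range of the other groups.

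The groups were fitted together with edgeR's quasi-likelihood test, and a gene was called at a Benjamini-Hochberg adjusted p under 0.1 over all 21371 genes. Nerve injury under saline left Drd2 at a log2 fold change of -0.0066 (SE 0.323, 95% interval -0.69 to 0.67, edgeR adjusted p = 0.993). The interval spans 0.622-fold to 1.59-fold, so a moderate change in either direction was not detectable with this spread. None of the 3 receptor genes tested was called in this contrast, in which 12.0% of all genes were called, and none passed the cut-offs used in the study (nominal p under 0.05 and a log2 fold change at or beyond 0.32 in either direction), beside 7.15% of all genes. The study applied these cut-offs to DESeq2 results, whereas the main fit here applied them to edgeR results.

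The contrast of SNI-DMI against Sham-DMI, that is nerve injury under DMI, had the largest pairwise log2 fold change of Drd2, 0.88 (SE 0.326, 95% interval 0.20 to 1.57), or 1.84-fold. Its edgeR adjusted p was 0.301, so Drd2 was not called. It passed these looser cut-offs, as 1 of the 3 receptor genes tested, where 5.41% of all genes passed and 4.07% passed upwards. At an adjusted p under 0.1, 0.402% of all genes were called in this contrast. All 4 SNI-DMI libraries exceeded the Sham-DMI median, 3 exceeded every Sham-DMI library, and the exact two-sided permutation test of the 4 against 4 values gave p = 0.0571, where the smallest p possible is 0.0286.

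This difference leaned on the Sham-DMI libraries. Without Sham-DMI 2 and 4, an alternative chosen after seeing the data, the log2 fold change was 0.42 (edgeR adjusted p = 0.763), short of the looser cut-offs. Without Sham-DMI 4 alone it was 0.67 (edgeR adjusted p = 0.37), also short of them, and without Sham-DMI 1 alone it was 1.25 with an edgeR adjusted p of 0.07, which is past the threshold. DESeq2 on the 8 libraries of the contrast, also added after seeing the data, gave 0.88 with an adjusted p of 0.0845. Over all alternatives that left out 1 library the log2 fold change of Drd2 lay between 0.67 and 1.25.

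DMI against saline in injured mice gave a log2 fold change of Drd2 of 0.55 (SE 0.321, 95% interval -0.13 to 1.22, edgeR adjusted p = 0.371), with 3 of 4 SNI-DMI libraries above all SNI-Saline libraries (exact permutation p = 0.171). Without SNI-Saline 1, the saline library with the highest Drd2, the value was 0.85 (edgeR adjusted p = 0.218), past the looser cut-offs, while without SNI-Saline 3 it was 0.36. None of the 3 receptor genes tested was called, beside 2.93% of all genes, and none passed the looser cut-offs, beside 5.73%. The study, by contrast, named Drd2 among the genes changed in this comparison. DESeq2 here gave Drd2 a nominal p of 0.119 on the 8 libraries of the contrast and 0.152 on all 16 libraries. The reason for this difference was not tested.

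DMI against saline after sham surgery gave a log2 fold change of Drd2 of -0.34 (SE 0.328, 95% interval -1.03 to 0.35, edgeR adjusted p = 0.523). Without Sham-DMI 2 and 4 the sign turned, to 0.12 (edgeR adjusted p = 0.858), and without Sham-DMI 1 the value was -0.71 (edgeR adjusted p = 0.178), past the looser cut-offs. No receptor gene was called in this contrast, in which 23.4% of all genes were called, the largest share of the 4 pairwise contrasts, and none passed the looser cut-offs, beside 11.5%.

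The difference between the DMI effect after injury and the DMI effect after sham surgery was tested as an interaction. For Drd2 it was 0.89 on the log2 scale (SE 0.458, 95% interval -0.075 to 1.85, edgeR adjusted p = 0.637), and 0.43 (edgeR adjusted p = 0.769) without Sham-DMI 2 and 4. It passed the looser cut-offs, at up to 1.25 on the log2 scale, when Sham-Saline 1 (1.06), SNI-Saline 1 (1.17), Sham-DMI 1 (1.25) or SNI-DMI 3 (1.0) was left out. With all libraries none of the 3 receptor genes passed the looser cut-offs for the interaction, beside 3.45% of all genes. With edgeR 0.0% of all genes were called for the interaction, beside 1692 genes at a nominal p under 0.05, and DESeq2 on all 16 libraries called 16 genes. The contrasts share libraries, each group entering 3 of the 5, so they are not independent of each other. In no pairwise contrast were the groups free of overlap for any of the 3 receptor genes, beside 15.4%, 5.04%, 13.3% and 17.1% of all genes for injury under saline, injury under DMI, DMI after injury and DMI after sham surgery.

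**Figure D3:**
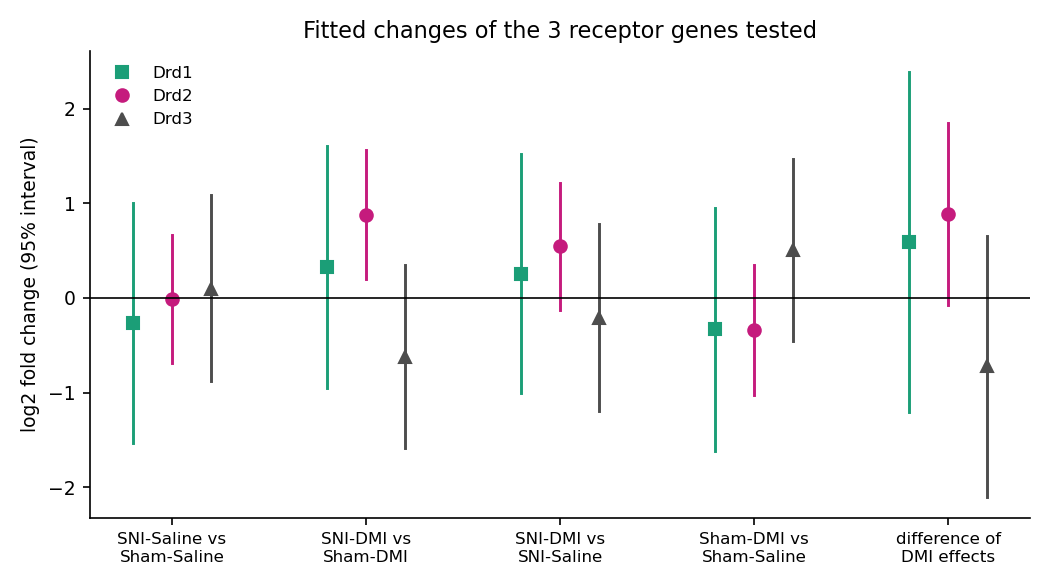
Fitted log2 fold changes of Drd1, Drd2 and Drd3 in the 4 pairwise contrasts and the interaction, with 95% intervals from edgeR. The interval of Drd2 in SNI-DMI against Sham-DMI (0.20 to 1.57) is the only one of the 15 that does not reach 0.

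The spread of Drd2 between mice of the same group was wide for its level. The SD within groups was 0.542 on the log2 scale, against a median of 0.22 for the 3013 genes within 2-fold of its mean CPM, and 97.2% of those genes had a smaller SD. The coefficient of variation within groups was 17.1% to 49.1%, while the counts alone give 6.27% to 8.90%. Drd1 and Drd3 had SDs of 0.823 and 0.63, above 88.5% and 70.1% of the genes of their own level.

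Drd2 did not vary alone. Across the 16 libraries, the log2 CPM of 71 of 21330 genes correlated with that of Drd2 at Pearson's r above 0.8, against 0 genes for Drd1 and 3 for Drd3. These numbers are not like for like. Counting alone gives a coefficient of variation of 22.6% to 33.3% for Drd1 and Drd3, against 6.27% to 8.90% for Drd2, which limits how high their correlations can be. These correlations are descriptions over libraries that share 4 group labels and their library preparation, and carry no test. The gene most like Drd2 was Upp1, which encodes uridine phosphorylase 1, with r = 0.95, Spearman's rho = 0.95 and r = 0.928 within groups. It was at 1.01 CPM in Sham-DMI 4 and 1.22 CPM in Sham-DMI 2, and at 2.32 to 2.99 CPM in the 3 SNI-DMI libraries with the most Drd2.

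The other 4 were Shf (r = 0.937), an adaptor protein with an SH2 domain, Cidea (r = 0.935), a lipid droplet protein, Scgn (r = 0.927), which encodes the calcium sensor secretagogin, and Adcy2 (r = 0.913), an adenylyl cyclase that makes cyclic AMP. Scgn was at 1.67 CPM in Sham-Saline 1, 1.53 and 1.65 CPM in SNI-Saline 3 and 4, and 1.47 CPM in Sham-DMI 4, libraries with low Drd2. In Sham-DMI 2, where Drd2 was low as well, Scgn was higher, at 2.65 CPM. It was at 4.62 to 5.93 CPM in SNI-DMI. Within groups the 5 genes kept r of 0.876 to 0.951, and without Sham-DMI 2 and 4, the libraries farthest from the Drd2 median, r was 0.914 to 0.96. None of these 5 genes was called in any contrast.

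Drd2 also moved with the peptidergic nociceptor markers, a list of 6 genes (Tac1, Calca, Calcb, Adcyap1, Trpv1 and Kit) of the small sensory neurons that release substance P and CGRP. The summed level of the list correlated with Drd2 at r = 0.749 over 16 libraries and 0.848 within groups, the highest of the 16 marker lists compared. Among its members, singled out after their values were seen, Trpv1, the capsaicin receptor, had r = 0.824 and Tac1, the substance P precursor, r = 0.781, while Calcb had r = -0.0226. Within groups, the list of DRG sensory neuron identity was next, at r = 0.526, and the non-peptidergic nociceptor markers went the other way, at -0.458. Over the 16 libraries the order was different. The macrophage (0.388), injured neuron (0.361) and satellite glia (0.316) lists then stood above DRG sensory neuron identity (0.285). The lists for C-LTMRs (the Th-positive low-threshold mechanoreceptors), Schwann cells and injured neurons had r within groups of -0.104, 0.0103 and 0.089, and the spinal cord and central nervous system list had -0.639.

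The peptidergic list summed to 1410 to 1720 CPM in Sham-Saline, 1550 to 1890 CPM in SNI-Saline, 1610 to 1880 CPM in Sham-DMI and 1810 to 1960 CPM in SNI-DMI, the group with the highest Drd2. Of its 6 members, 2 were called higher by DMI after sham surgery (Calca and Calcb), where 23.4% of all genes were called, and none in the other contrasts. These 2 calls remained without Sham-DMI 2 and 4, when Calca was also called higher after injury under saline and Kit by DMI after injury. That fit called 5367, 3064 and 1206 of all 22098 genes for DMI after sham surgery, injury under saline and DMI after injury. No defining marker was at 0. The range of the summed list over all libraries was narrower than that of Drd2, and Drd2 per 1000 CPM of the list still ran from 0.776 in Sham-DMI 4 to 2.46 in SNI-DMI 2. The part of these markers in the Drd2 differences was not tested.

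**Figure D4:**
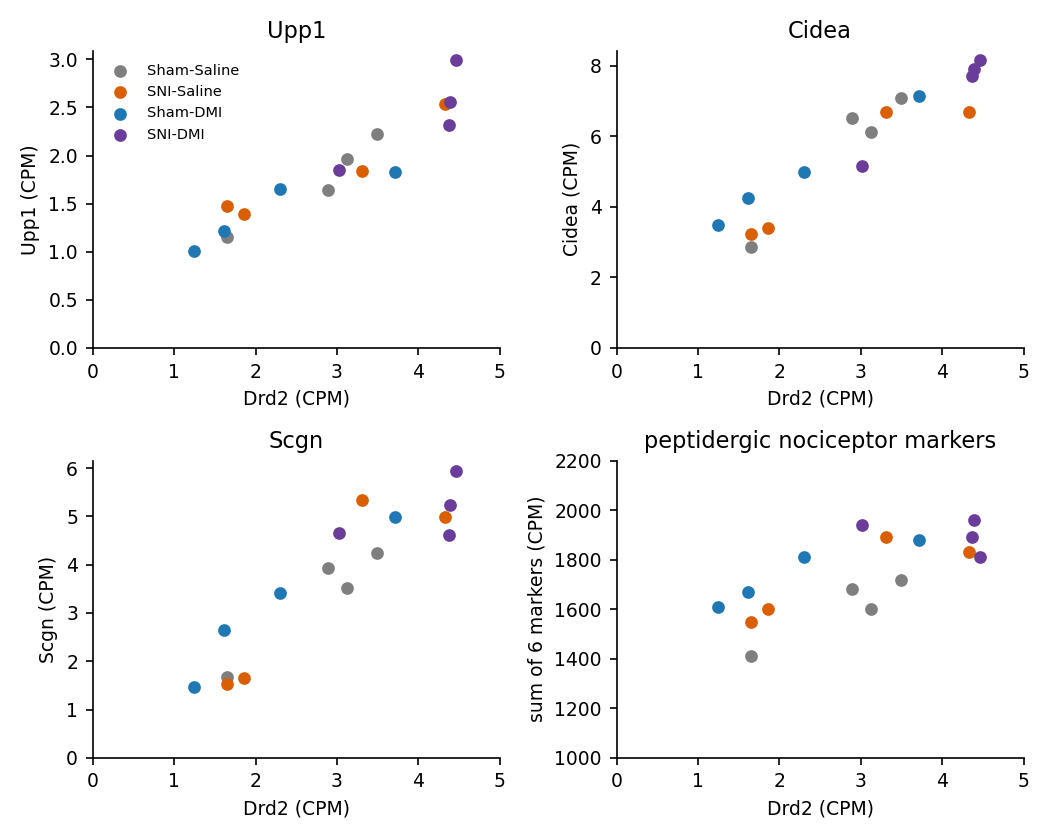
Drd2 CPM against the CPM of Upp1, Cidea and Scgn and against the summed CPM of 6 peptidergic nociceptor markers (axis from 1000 CPM), with 1 point per library coloured by group. Libraries of all 4 groups lie along the same rising trend, from Sham-DMI 4 (1.25 CPM Drd2, 1.47 CPM Scgn) to SNI-DMI 2 (4.46 CPM Drd2, 5.93 CPM Scgn).

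Drd3, the other D2-like receptor with enough reads to test, had 23, 4, 9 and 20 counts in Sham-Saline and 14, 17, 13 and 14 in SNI-Saline. It had 12, 41, 8 and 17 counts in Sham-DMI and 14, 14, 14 and 9 in SNI-DMI. The highest value, 41 counts or 0.563 CPM in Sham-DMI 2, came from 1 of the 2 sham libraries with raised Sprr1a, and the groups overlapped in all contrasts. The log2 fold changes were 0.10 for injury under saline, -0.62 for injury under DMI, -0.21 for DMI after injury and 0.51 for DMI after sham surgery, with edgeR adjusted p of 0.926, 0.611, 0.848 and 0.487. Without Sham-DMI 2 and 4 the values for injury under DMI and for DMI after sham surgery changed sign, to 0.02 and -0.13. The value for injury under saline changed sign without Sham-Saline 2 (-0.23) or Sham-Saline 3 (-0.049).

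The genes most like Drd3 were Spata13 (r = 0.878), 4931409K22Rik (r = 0.875), Hjurp (r = 0.862), Wdr11 (r = 0.747) and Fam120b (r = 0.746). These values fell to between 0.405 and 0.727 without the 2 libraries farthest from the Drd3 median. Drd3 and Drd2 did not vary together (r = -0.353 over 16 libraries).

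Drd1, the main D1-like receptor of the striatum, had 25, 6, 9 and 9 counts in Sham-Saline and 18, 5, 7 and 9 in SNI-Saline. It had 6, 16, 9 and 5 counts in Sham-DMI and 2, 12, 15 and 20 in SNI-DMI. Each group held a library with at least 2.85 times the CPM of its lowest, and the groups overlapped in all contrasts. The log2 fold changes lay between -0.33 (DMI after sham surgery, 95% interval -1.62 to 0.95) and 0.33 (injury under DMI, 95% interval -0.95 to 1.61), with edgeR adjusted p of 0.76 to 0.865 over the pairwise contrasts. The sign for injury under saline (-0.26) and for DMI after sham surgery rested on Sham-Saline 1, without which they were 0.44 and 0.38, and the sign for DMI after injury (0.25) rested on SNI-DMI 4, without which it was -0.048.

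The genes most like Drd1 were Gm43690 (r = 0.756), Gm7008, Gm42872, Ric8b (r = 0.72), which encodes a chaperone of stimulatory G protein alpha subunits, and Gm13270. These values were 0.431 to 0.60 without the 2 libraries farthest from the Drd1 median. At these counts a weak correlation cannot be read as shared variation.

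Drd5, the other D1-like receptor, and Drd4, the third D2-like receptor, were at the edge of detection. Drd4 had at most 3 counts in any library and never exceeded the floor, with 2 counts summed over Sham-Saline, 5 over SNI-Saline, 1 over Sham-DMI and 5 over SNI-DMI. Drd5 had 3, 3, 5 and 9 counts summed over the groups in the same order and exceeded the floor in SNI-DMI 4 alone, with 5 counts or 0.0754 CPM. An exact permutation test of Drd5 gave p = 0.571 for SNI-DMI against Sham-DMI (n = 4 each), and no difference was detectable at this depth. Without the filter on low counts edgeR fitted both genes as well, and neither was called in any contrast, with adjusted p of 0.644 to 1.0 for Drd4 and 0.612 to 1.0 for Drd5.

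**Figure D5:**
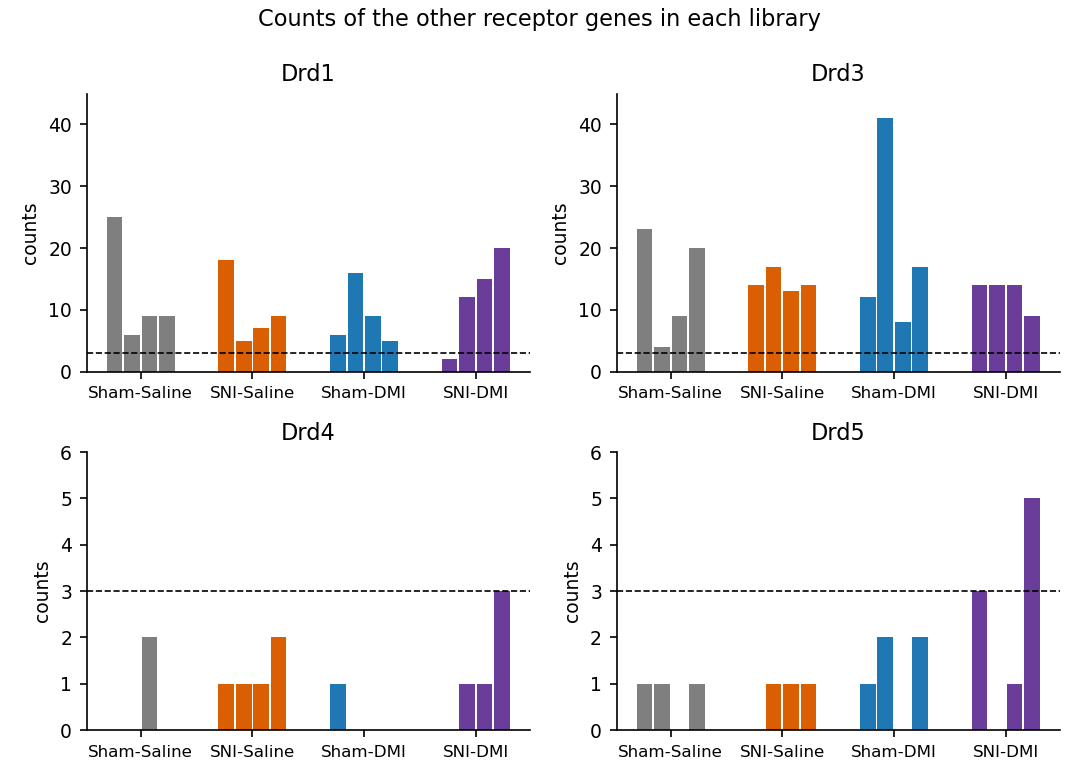
Counts of Drd1, Drd3, Drd4 and Drd5 in each library by group, replicates 1 to 4 from left to right, with the floor of 3 counts as a dashed line. Drd1 and Drd3 reach 25 and 41 counts and vary several-fold within groups, whereas Drd4 stays at or below 3 counts and Drd5 at or below 5.

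The genes around the receptors were taken from 8 lists that follow dopamine from synthesis to signalling, 66 genes of which 64 were tested. Of these, 1 was called higher and 11 lower after injury under saline, 2 higher and 3 lower by DMI after injury, and 5 higher and 16 lower by DMI after sham surgery. Injury under DMI and the interaction had no called gene by edgeR. Their median log2 fold changes were -0.094, 0.021 and -0.066 in the first 3 contrasts, beside medians over all genes tested of -0.001, -0.005 and -0.021. The called shares, 12 of 64, 5 of 64 and 21 of 64, stood beside 12.0%, 2.93% and 23.4% of all genes. The counts depended on the fit: with trends of GC content and length removed they were 6, 0 and 13, beside 1046, 48 and 4116 of all 21324 genes fitted. Without Sham-DMI 2 and 4, 21 genes were again called by DMI after sham surgery, but with 8 higher and 13 lower, beside 5367 of all 22098 genes.

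Among the genes that make and carry dopamine, Th, the rate-limiting enzyme of catecholamine synthesis and also a C-LTMR marker, was high in all groups, at 115 to 169 CPM in Sham-Saline and 155 to 212 CPM in SNI-DMI. Its log2 fold change by DMI after injury was 0.39 (SE 0.13, edgeR adjusted p = 0.127), so it was not called. In this main fit Th did pass the looser cut-offs, beside 5.73% of all genes. The study also named Th among the genes changed in this comparison. Whether it was called depended on the fit. DESeq2 on all 16 libraries, edgeR on the 8 libraries of the contrast and edgeR without the filter on low counts gave adjusted p of 0.0476, 0.0675 and 0.0707. DESeq2 on the 8 libraries, added after seeing the data, gave 0.00469. It stayed uncalled with the replicate block (edgeR adjusted p = 0.17) and with GC and length trends removed (0.252). The same held with DESeq2 size factors in edgeR (0.128), at least 10 counts in every library (0.115) and without Sham-DMI 2 and 4 (0.118). Ddc, which turns L-DOPA into dopamine, was at 1.04 to 1.88 CPM and was not called in any contrast. Slc6a3, the plasma membrane dopamine transporter, had at most 1 count in any library and was not tested.

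Slc18a2, the vesicular monoamine transporter, fell by 0.61 on the log2 scale with DMI after sham surgery (SE 0.163, edgeR adjusted p = 0.0175), from 6.68 ± 0.587 CPM in Sham-Saline to 4.38 ± 0.938 CPM in Sham-DMI (SD, n = 4), with no overlap. Dbh, which turns dopamine into noradrenaline, rose by 2.03 after injury under saline (SE 0.622, edgeR adjusted p = 0.0615), from 12 counts over the 4 Sham-Saline libraries to 48 over the 4 SNI-Saline libraries. That call was lost (adjusted p of 0.11 to 0.158) when any of 6 single libraries of the contrast was left out, and with the GC and length trends removed (1.96, adjusted p = 0.104).

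The remaining pathway genes named by the rule, the 8 of 25 called genes with the smallest p, were all lower. Prkar2a, a regulatory subunit of the cyclic AMP-dependent protein kinase, fell by 0.28 after injury under saline (SE 0.0492, edgeR adjusted p = 0.00703), from 255 to 287 CPM in Sham-Saline to 215 to 224 CPM in SNI-Saline, with no overlap. It also fell by 0.22 with DMI after sham surgery (edgeR adjusted p = 0.00744). Prkar2b, a second regulatory subunit of the same kinase, fell by 0.24 and 0.19 in these contrasts (edgeR adjusted p = 0.0253 and 0.0263), and the call by DMI after sham surgery was lost without Sham-DMI 2 and 4 (-0.15, edgeR adjusted p = 0.135).

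The G protein alpha subunits of both receptor families were among them. Gnal, which encodes the Golf subunit used by D1-like receptors, fell by 0.28 after injury under saline and by 0.20 with DMI after sham surgery (edgeR adjusted p = 0.0335 and 0.0634), the latter call being lost without Sham-DMI 2 and 4 (-0.17, edgeR adjusted p = 0.134). Gnai1, an inhibitory subunit used by D2-like receptors, fell by 0.17 with DMI after sham surgery, by 0.18 with DMI after injury and by 0.12 after injury under saline (edgeR adjusted p = 0.0118, 0.0674 and 0.0876). Gnai3, another inhibitory subunit, fell by 0.20 with DMI after sham surgery (edgeR adjusted p = 0.00892). Of the 10 G protein subunits listed, 3 were called lower and 0 higher after injury under saline, 1 lower and 0 higher by DMI after injury, and 3 lower and 1 higher by DMI after sham surgery, beside 12.0%, 2.93% and 23.4% of all genes called in either direction. The counts lower were 4, 2 and 2 without Sham-DMI 2 and 4, a fit that called 3064, 1206 and 5367 of 22098 genes in these contrasts.

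Grk3, a kinase that desensitises G protein-coupled receptors, fell by 0.37 after injury under saline and by 0.30 with DMI after sham surgery (edgeR adjusted p = 0.0298 and 0.033). The latter call was lost without Sham-DMI 2 and 4 (-0.28, edgeR adjusted p = 0.111). Cadps2, a protein of dense-core vesicle release, fell by 0.38 and 0.23 in the same contrasts (edgeR adjusted p = 0.0117 and 0.0441), and without these 2 libraries the call by DMI after sham surgery was lost too (-0.19, edgeR adjusted p = 0.158). Cadps, its paralog, fell by 0.17 with DMI after sham surgery and by 0.23 with DMI after injury (edgeR adjusted p = 0.0487 and 0.0781). With GC and length trends removed, the calls of Gnal, Gnai1 and Cadps in every contrast named here and those of Gnai3, Prkar2b, Grk3 and Cadps2 by DMI after sham surgery were lost, and Cadps by DMI after sham surgery turned to 0.021. Gnai1 after injury under saline was then at -0.099 (edgeR adjusted p = 0.249), close to its value of -0.12 before. The calls of Prkar2a in both contrasts remained with these trends removed, at -0.26 after injury under saline (edgeR adjusted p = 0.0121) and at -0.13 in place of -0.22 by DMI after sham surgery (edgeR adjusted p = 0.0784). Of the 16 fits that each left out 1 library, 13 lost the call of Gnai1 after injury under saline, 10 that of Cadps with DMI after injury, 9 that of Gnal with DMI after sham surgery and 7 that of Gnai1 with DMI after injury, while the calls of the other genes and contrasts of these 8 were lost in at most 4.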

How the data were processed

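Per the labels and the methods of the study, RNA of L3-6 DRG was made into libraries with a stranded mRNA kit and sequenced as paired ends, and reads were aligned to mm10 with HISAT2 and counted per gene with HTSeq. The authors deposited 1 table of raw counts per library, with 52636 Ensembl genes and 5 lines of unassigned reads, which were left out of library sizes (no feature 7.1% to 9.44%, ambiguous 3.05% to 3.41%). Whether counting used strand is not given in the sources used here. The 16 libraries were mapped to groups by their labels, all unit counts.

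Gene names came from GENCODE M21 (52489 identifiers matched, 147 did not). Counts were fitted with edgeR 4.0.16 (TMM, filterByExpr, glmQLFit, 1 coefficient per group over all 16 libraries, 21371 genes), with Benjamini-Hochberg adjustment over all genes tested. CPM are counts per 1000000 of TMM-scaled library size. For single values, group means of log2 CPM (prior count 2) were set against all reassignments of the 8 libraries in an exact two-sided permutation test. Intervals and floors cover counting or replicate error only, and p-values measure the spread between mice. Libraries of 1 group differed beyond sampling noise (chi-square per gene 10.4 to 44.3), so none was merged. The fit was tested on simulated counts. Alternatives were DESeq2 1.42.0, its size factors in edgeR, other filters, the 8 libraries of a contrast alone, a replicate block, GC and length trends removed, and each library left out in turn. RefSeq sequences were matched by symbol (5 of 5).

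The members, gene lists and tests were chosen with earlier results of these data known. 1 peptidergic marker of the original list is not reported here and was left out of every value of that list. The text names the 5 receptors, the 8 pathway genes with the smallest p among those called, Th, Ddc, Slc6a3, Slc18a2 and Dbh, and the 5 genes most correlated with each receptor of at least 0.1 CPM. Kcnj6, Rgs9, Maob and Ppp1r1b were added for their interaction values.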

Additional observations from a re-analysis of the deposited data

Results flagged for a closer look

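Of 61 sets of 4 libraries of 1 gene and group examined, 5 had a library far from the other 3 by Dixon's criterion, and chance alone gives about 1 in 20. Drd1 was highest in Sham-Saline 1, at 0.435 CPM against 0.0847 to 0.14 CPM in the other 3 libraries, and this library set the sign of Drd1 in 3 comparisons. Drd2 was lowest in SNI-DMI 3, at 3.02 CPM against 4.37 to 4.46 CPM. Gnal was lowest in Sham-Saline 2 (496 CPM against 545 to 555) and in SNI-Saline 1 (421 CPM against 445 to 450), and Slc18a2 was highest in SNI-DMI 4 (5.0 CPM against 3.64 to 3.88).

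Among the pathway genes named by the rule, the DMI effect differed between injured and sham mice at a nominal p under 0.05 for Cadps2, by 0.25 on the log2 scale, and for Grk3, by 0.33. Other genes of the pathway lists, named after their values were seen, had smaller nominal p: Kcnj6 (1.24), Rgs9 (1.11), Maob (0.78) and Ppp1r1b (0.42). Of all 21371 genes, 1692 had a nominal p under 0.05. All the genes named here had an edgeR adjusted p of 0.619 over all genes, so no difference was called.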

How the results depend on the processing

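Depth limits Drd4 and Drd5, which no setting brought to a test with enough counts, and spread between mice limits Drd2. Drd2 kept its direction for injury under DMI, DMI after injury and the interaction in all alternatives run. It turned by a negligible amount for injury under saline with DESeq2 on all 16 libraries (0.0048) and on the 8 libraries of the contrast (0.00086), as did Drd3 there with GC and length trends removed (-1.2e-05). Without Sham-DMI 2 and 4 it turned to 0.12 for DMI after sham surgery, and Drd3 to -0.13 there and to 0.02 for injury under DMI. Drd2 was called for injury under DMI by DESeq2 on the 8 libraries (0.88, adjusted p = 0.0845), making 1 receptor gene called in place of 0, and fell below the looser cut-offs without Sham-DMI 2 and 4 (0 receptor genes in place of 1). Without the filter on low counts 1 receptor gene (Drd2) passed the looser cut-offs for DMI after injury and 1 receptor gene for the interaction, in place of 0. The replicate numbers were not treated as pairs in the main fit, and the values do not settle whether they pair the samples. Same-numbered libraries of different groups correlated at -0.081 to 0.184 and libraries with other numbers at -0.248 to 0.169. Of the same-numbered pairs 5 of 24 were above 0.1, and 7 of 16 libraries correlated best with one of their own number. With the replicate block, Drd2 was -0.11, 0.60, -0.44, 0.93 and 1.04 for injury under saline, DMI after injury, DMI after sham surgery, injury under DMI and the interaction, 1 receptor gene passed the looser cut-offs for the interaction (Drd2), and for DMI after injury 172 of all genes and 0 of the pathway genes were called in place of 626 and 5. No receptor gene was called with the block. The length of Drd5 without the bases shared with Gm26560 left 3 of 5 receptors in the same place of the order in SNI-Saline. The cause of these changes was not tested.

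Leaving out 1 library in turn, the ranges for Drd1 were -0.79 to 0.44 for injury under saline, -0.048 to 0.81 for DMI after injury, -0.60 to 0.38 for DMI after sham surgery and -0.11 to 1.12 for the interaction. They were -0.28 to 0.18 for Drd2 and -0.23 to 0.53 for Drd3 for injury under saline, and 0.67 to 1.25 for Drd2 for injury under DMI. The number of receptor genes called for injury under DMI was 0 to 1, and the number past the looser cut-offs 0 to 1 for injury under DMI, DMI after injury, DMI after sham surgery and the interaction. All genes called numbered 682 to 3286 for injury under saline, 0 to 1842 for DMI after injury, 3286 to 6094 for DMI after sham surgery, 17 to 850 for injury under DMI and 0 to 1 for the interaction. Pathway genes called numbered 2 to 14 (fewest without SNI-Saline 1), 0 to 10 (0 without any of SNI-Saline 1, 3 or 4, Sham-DMI 3 or SNI-DMI 1, 2 or 3), 12 to 22 (fewest without Sham-Saline 1 or Sham-DMI 1) and 0 to 7 (most without Sham-DMI 1) for the first 4.

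For injury under saline, 2571 genes and 12 pathway genes were called. They became 1046 and 6 with GC and length trends removed, 4146 and 20 by DESeq2 on the 8 libraries, and 869 genes with a log2 fold change of at least 0.32 asked as well. For DMI after injury, 626 and 5 became 1859 and 12 by DESeq2 on all libraries, 1812 and 10 by edgeR on the 8 libraries, 48 and 0 with the trends removed and 3014 and 16 by DESeq2 on the 8 libraries, with 1206 genes without Sham-DMI 2 and 4 and 229 with the fold change asked. For DMI after sham surgery, 5010 became 1950 with the fold change asked, and 21 pathway genes became 13 with the trends removed, when Cadps turned to 0.021. For injury under DMI, 86 and 0 became 310 and 2 without the filter, 502 and 6 by DESeq2 on all libraries, 216 and 2 with the trends removed and 337 and 2 by DESeq2 on the 8 libraries, with 9 genes by edgeR on the 8 libraries and 30 without Sham-DMI 2 and 4. DESeq2 called 16 genes for the interaction in place of 0.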
